A study of Mus musculus with 12 samples.

Results

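The genes described here are 10 genes of the cell junctions and secreted proteins of the endothelium, the cell layer that lines blood vessels. Some are also made by other cells, and which cells gave the RNA was not tested. The 10 genes are Pecam1, Cdh5, Ptprb, Cldn5, Esam, Tjp1, F11r, Vwf, Egfl7 and Mmrn1. They were chosen by symbol, and all 10 were among the 10655 genes of the deposited table. RNA of mouse aortic endothelial cells (MAECs in the labels) was sequenced by SMART-seq, a full-length RNA protocol, in 12 libraries. Each of 4 groups had 3 libraries: in CD_CD both mother and offspring were on CD, in WD_CD the mother was on WD and the offspring on CD, in CD_WD the mother was on CD and the offspring on WD, and in WD_WD both were on WD. That order, mother before offspring, follows the series text and is not spelled out in the titles. The text adds that offspring on WD received it again for 4 weeks. Neither CD nor WD is written out in the labels, while the series title names a high-fat diet of the mothers. No label states a genotype, age, sex, sorting step or batch, so the offspring's diet and any such difference cannot be told apart. They also do not say that replicates were separate animals, and p-values then reflect only how much these libraries vary, in part perhaps for technical reasons.

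Endothelial cells hold each other through adherens junctions, built on VE-cadherin, and tight junctions, built on claudins and their scaffolds. PECAM1 sits at the same borders and takes part in the passage of leukocytes. Endothelial cells also store von Willebrand factor in Weibel-Palade bodies and release it to bind platelets, and many endothelial genes are driven by transcription factors of the ETS, GATA and SOX families.

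Reads in the listed genes numbered 4074413 to 19670570 per library. The 20 most abundant genes held 12.9% to 14.4% of them in libraries of CD offspring, and 35.4% to 46.2% in those of WD offspring. The 10 genes together held 0.80% to 1.296% of the reads in the listed genes in CD offspring. In WD offspring they held 0.061% to 0.216% in 5 libraries and 0.0073% in CD_WD replicate 1, which was the lowest of its group for 10 of 10 genes. The fitted values of the averaged comparison are therefore given for each gene with and without it.

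The start regions of these genes are shown because transcription factors of endothelial genes are described further on. RefSeq's promoter table (GRCm38.p6) matched 5 of the 10 genes, with 7 start sites: 3 of Egfl7 and 1 each of Cldn5, F11r, Mmrn1 and Tjp1. Pecam1, Cdh5, Ptprb, Esam and Vwf had no entry. In the 250 bases before each start, 4 motifs were searched on both strands. The letters AGGAAG stood for the ETS family, ACAAAG for the SOX family, AGATAA for the factors named GATA, and TATAAA for the TATA box. The lines give the 3 starts of Egfl7, the only gene of the 5 with a match, and Cldn5, a compact gene with none. All are on the plus strand, written 5′ to 3′, and capitals mark a match in either orientation.
Egfl7, chr2:26580833-26581082: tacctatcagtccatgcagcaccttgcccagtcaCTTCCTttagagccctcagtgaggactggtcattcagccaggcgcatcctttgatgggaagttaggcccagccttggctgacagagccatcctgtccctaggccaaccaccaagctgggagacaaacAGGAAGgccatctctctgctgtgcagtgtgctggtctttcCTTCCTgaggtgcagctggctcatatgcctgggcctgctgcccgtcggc
Egfl7, chr2:26583615-26583864: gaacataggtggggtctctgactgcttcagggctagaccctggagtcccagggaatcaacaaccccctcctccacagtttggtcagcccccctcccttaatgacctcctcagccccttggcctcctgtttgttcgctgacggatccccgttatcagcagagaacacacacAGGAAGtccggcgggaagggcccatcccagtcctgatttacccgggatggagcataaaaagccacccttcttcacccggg
Egfl7, chr2:26586386-26586635: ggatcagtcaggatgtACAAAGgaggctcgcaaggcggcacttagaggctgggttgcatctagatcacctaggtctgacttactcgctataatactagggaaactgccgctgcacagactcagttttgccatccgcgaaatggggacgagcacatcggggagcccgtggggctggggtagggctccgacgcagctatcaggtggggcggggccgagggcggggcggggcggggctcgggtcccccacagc
Cldn5, chr16:18776597-18776846: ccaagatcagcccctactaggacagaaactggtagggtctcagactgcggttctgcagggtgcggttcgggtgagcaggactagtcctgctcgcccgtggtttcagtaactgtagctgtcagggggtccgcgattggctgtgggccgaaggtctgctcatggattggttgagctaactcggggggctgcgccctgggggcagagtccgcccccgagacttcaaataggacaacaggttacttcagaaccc
The first Egfl7 start had the ETS letters at 216, 89 and 49 bases before the start, and the second at 80 bases before it. The third had the SOX letters at 234 bases before the start. ETS letters were thus in 2 of the 7 regions, against 29.5% of 32851 promoters of the same length, and SOX letters in 1 of 7, against 16.5%. GATA letters were in 0 of 7, against 3281 of the 32851 promoters, and TATA letters in 0 of 7, against 12.4%. A match is a description of these letters and not a binding site.

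The offspring's diet was the comparison in which these genes moved. Averaged over both mothers' diets, 9 of the 10 fell in WD offspring, from 2.95-fold for Egfl7 to 49.7-fold for Mmrn1 (limma on log2 values with a pseudocount of 1, Benjamini-Hochberg adjusted p under 0.05). F11r did not pass, at a log2 difference of -1.28 (adjusted p = 0.0771 in limma). Of all 10655 genes, 17.6% fell, 20.1% rose and 37.8% changed in either direction. The median log2 difference of the 10 genes was -2.63 (-2.20 without CD_WD replicate 1), beside -0.019 over all genes. In bulk RNA, fewer endothelial cells and less RNA per cell cannot be told apart.

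With CD mothers, 6 of 10 genes fell (Pecam1, Cdh5, Ptprb, Tjp1, Vwf and Mmrn1), against 5.55% of all genes in that direction, 9.46% in the other and 15.0% in either. With WD mothers the same 6 genes fell, against 10.2% of all genes in that direction, 14.2% in the other and 24.4% in either. Medians of the 10 genes were -2.57 with CD mothers and -2.73 with WD mothers on the log2 scale, beside -0.020 and 0.007 over all genes. Without CD_WD replicate 1 the median with CD mothers was -1.68, and without replicate 3 of that group it was -3.42. The count with CD mothers depended on single libraries. It was 2 without CD_CD replicate 1 (Ptprb and Vwf) or replicate 2 (Ptprb and Mmrn1), 4 without CD_CD replicate 3 or CD_WD replicate 1, and 10 without CD_WD replicate 3. With WD mothers it was 10 without CD_WD replicate 1, whose spread enters the shared error of that fit. Counts of all genes in these fits with a library left out are not given here.

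The scaling of the libraries bears on the size of these falls. The authors' size factors set the typical gene of each library to the same level, and 46.7% of the genes called in the averaged comparison were lower. Scaled to equal totals, an alternative added after the data were seen, the median of all genes moved to -1.40 on the log2 scale and 90.4% of the calls were lower. The median of the 10 genes was then -4.04, which is -2.64 relative to that shift.

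**Figure D1:**
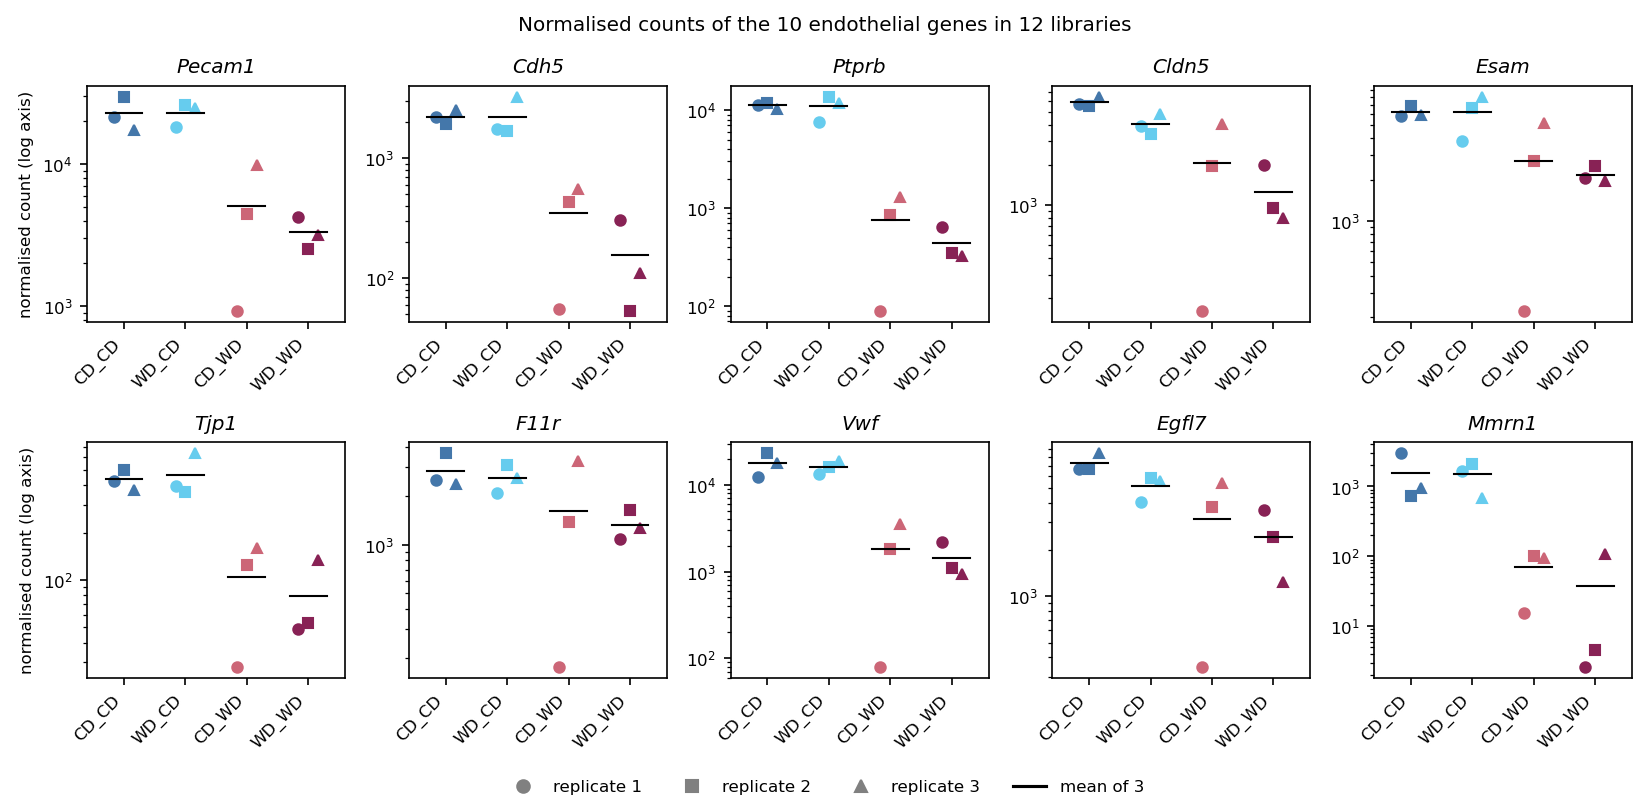
Normalised counts (log axis) of the 10 genes in each of the 12 libraries, with circles, squares and triangles for replicates 1, 2 and 3 and a bar for the mean of 3. All 6 WD libraries lie under all 6 CD libraries for Pecam1, Cdh5, Ptprb, Tjp1, Vwf and Mmrn1, and CD_WD replicate 3 lies within the CD range for the other 4. The share of all genes without overlap was not counted.

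Among the genes of cell adhesion, Pecam1, a homophilic adhesion molecule of endothelial cells, platelets and leukocytes, lies at chr11:106654213-106715281 of GRCm38. Its normalised counts were 21538, 29878 and 17284 (CD_CD), 18154, 26277 and 24698 (WD_CD), 923, 4473 and 9817 (CD_WD), and 4277, 2537 and 3172 (WD_WD). The highest WD library was CD_WD replicate 3 and the lowest CD library CD_CD replicate 3, and the 2 offspring diets did not overlap. Pecam1 averaged 22972 ± 4883 in CD offspring and 4200 ± 3040 in WD offspring (SD, n = 6). The fitted log2 difference was -2.75 ± 0.47 (SE), a 6.74-fold fall (limma adjusted p = 0.000741), and -2.28 without CD_WD replicate 1.

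Cdh5, the VE-cadherin of adherens junctions (chr8:104101613-104144504), had normalised counts of 2190, 1924 and 2493 (CD_CD) and 1730, 1681 and 3241 (WD_CD). The counts were 55.8, 433 and 554 (CD_WD) and 303, 53.1 and 111 (WD_WD). No WD library reached the lowest CD library. The log2 difference of Cdh5 was -3.65 ± 0.55 (SE, limma adjusted p = 0.00035), and -3.13 without CD_WD replicate 1.

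Ptprb, the vascular endothelial phosphatase that acts on VE-cadherin and TIE2 (chr10:116275502-116389538), had 11333, 11976 and 10415 normalised counts (CD_CD) and 7678, 13768 and 11923 (WD_CD). It had 88.7, 845 and 1313 (CD_WD) and 645, 350 and 325 (WD_WD). The lowest CD library was thus WD_CD replicate 1, still above every WD library. Ptprb had the smallest adjusted p of the 10 genes, with a 25.0-fold fall and a log2 difference of -4.64 ± 0.53 (SE, limma adjusted p = 5.77e-05). Without CD_WD replicate 1 the difference was -4.05, a 16.6-fold fall. It passed in 25 of 25 refits with CD mothers, 25 of 25 with WD mothers and 24 of 24 averaged over them.

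Of the tight junction genes, Cldn5, the main claudin of endothelium (chr16:18776847-18778262), had 5748, 5520 and 6495 normalised counts (CD_CD) and 3893, 3427 and 4827 (WD_CD). It had 160, 1969 and 4065 (CD_WD) and 1996, 957 and 796 (WD_WD). The groups overlapped, since CD_WD replicate 3 lay above WD_CD replicates 1 and 2. The averaged log2 difference of Cldn5 was -2.12 ± 0.61 (SE, limma adjusted p = 0.0159), while within each mother's diet it did not pass (adjusted p of 0.0756 and 0.141). Without CD_WD replicate 1 the averaged value was -1.43, a 2.70-fold fall in place of 4.35-fold.

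Esam, an immunoglobulin-type adhesion molecule at tight junctions (chr9:37528089-37538319), had 5836, 6830 and 5882 normalised counts (CD_CD) and 3820, 6667 and 8025 (WD_CD). The 3 CD_WD libraries had 221, 2751 and 5178, and the WD_WD libraries 2068, 2513 and 1952. CD_WD replicate 3 again lay within the CD range. The averaged log2 difference of Esam was -1.76 ± 0.59 (SE, limma adjusted p = 0.0333), and it passed in 16 of 24 refits. It was -1.08 without CD_WD replicate 1, a 2.11-fold fall in place of 3.38-fold.

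F11r, which encodes the junctional adhesion molecule JAM-A (chr1:171437561-171464593), had 2492, 3663 and 2375 normalised counts (CD_CD), 2075, 3071 and 2563 (WD_CD), 175, 1366 and 3275 (CD_WD), and 1084, 1623 and 1259 (WD_WD). Only CD_WD replicate 3 of the 6 WD libraries lay above the lowest CD library. F11r passed in 5 of 24 refits of the averaged comparison, 2 of which left out CD_WD replicate 1 (log2 difference -0.68, adjusted p = 0.046) or CD_WD replicate 3 (adjusted p = 0.00839).

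Tjp1, the scaffold protein ZO-1 (chr7:65296165-65527850), was lowest of the 10 in CD offspring per kilobase of merged exons, the exons of all its annotated transcripts joined. Its normalised counts were 427, 502 and 375 (CD_CD), 393, 361 and 641 (WD_CD), 27.9, 126 and 160 (CD_WD), and 48.8, 53.1 and 135 (WD_WD). The offspring diets did not overlap, and the log2 difference was -2.51 ± 0.46 (SE, limma adjusted p = 0.0013), or -2.13 without CD_WD replicate 1.

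Among the secreted proteins, Vwf, the platelet-binding factor of Weibel-Palade bodies (chr6:125552948-125686679), had 12290, 23385 and 17725 normalised counts (CD_CD) and 13492, 16245 and 18715 (WD_CD). It had 78.6, 1843 and 3573 (CD_WD) and 2222, 1109 and 946 (WD_WD). All 6 WD libraries lay under the lowest CD library. The fall was 16.04-fold, with a log2 difference of -4.00 ± 0.72 (SE, limma adjusted p = 0.00111). Without CD_WD replicate 1 it was 8.99-fold, with a log2 difference of -3.17.

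Egfl7, a secreted protein of the endothelial matrix (chr2:26581083-26592682), had 6658, 6653 and 8440 normalised counts (CD_CD), 4090, 5852 and 5542 (WD_CD), 345, 3762 and 5396 (CD_WD), and 3619, 2401 and 1231 (WD_WD). CD_WD replicate 3 lay within the CD range. Its log2 difference of -1.56 ± 0.56 (SE) just passed (limma adjusted p = 0.0426), and it passed in 14 of 24 refits. Without CD_WD replicate 1 it was -0.94, a 1.92-fold fall in place of 2.95-fold. Exons of Gm20532, Mir126a, Mir126b and Agpat2 overlap those of Egfl7. The largest single overlap is 7.37% of its exon bases, and the overlaps add up to 459 of 3581 bases. The handling of strand is not given in the sources used here.

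Mmrn1, multimerin 1, a factor V-binding protein of platelets and endothelium that is also high in lymphatic vessels (chr6:60944317-60989378), varied most. Its normalised counts were 3015, 730 and 937 (CD_CD) and 1667, 2107 and 695 (WD_CD). They were 15.2, 100 and 94.7 (CD_WD) and 2.57, 4.55 and 107 (WD_WD), from 6, 48 and 110 reads and from 1, 3 and 27 reads. The averaged log2 difference of -5.63 ± 0.82 (SE, limma adjusted p = 0.000261) was the lowest of all 10655 genes. It ran from -6.98 (equal totals) to -4.91 (DESeq2) over the refits, and was -5.20 without CD_WD replicate 1. Leaving out WD_WD replicate 3 gave -6.40.

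The same comparison without a model across genes, a two-sided exact permutation test over the 924 arrangements of 6 against 6 libraries, gave p = 0.00216 for Pecam1, Cdh5, Ptprb, Tjp1, Vwf and Mmrn1, the smallest it can give. The exact permutation p was 0.00433 for Esam and Egfl7, 0.00649 for Cldn5 and 0.0173 for F11r. In those 4 genes, 5 of 6 WD libraries lay under all CD libraries. The share of all genes without overlap between the diets was not counted, while 17.6% of all genes fell in limma. Without CD_WD replicate 1, the averaged log2 differences ran from -5.20 for Mmrn1 to -0.68 for F11r, and 10 of 10 genes fell in limma. The share of all genes that fell in that fit is not given here.

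**Figure D2:**
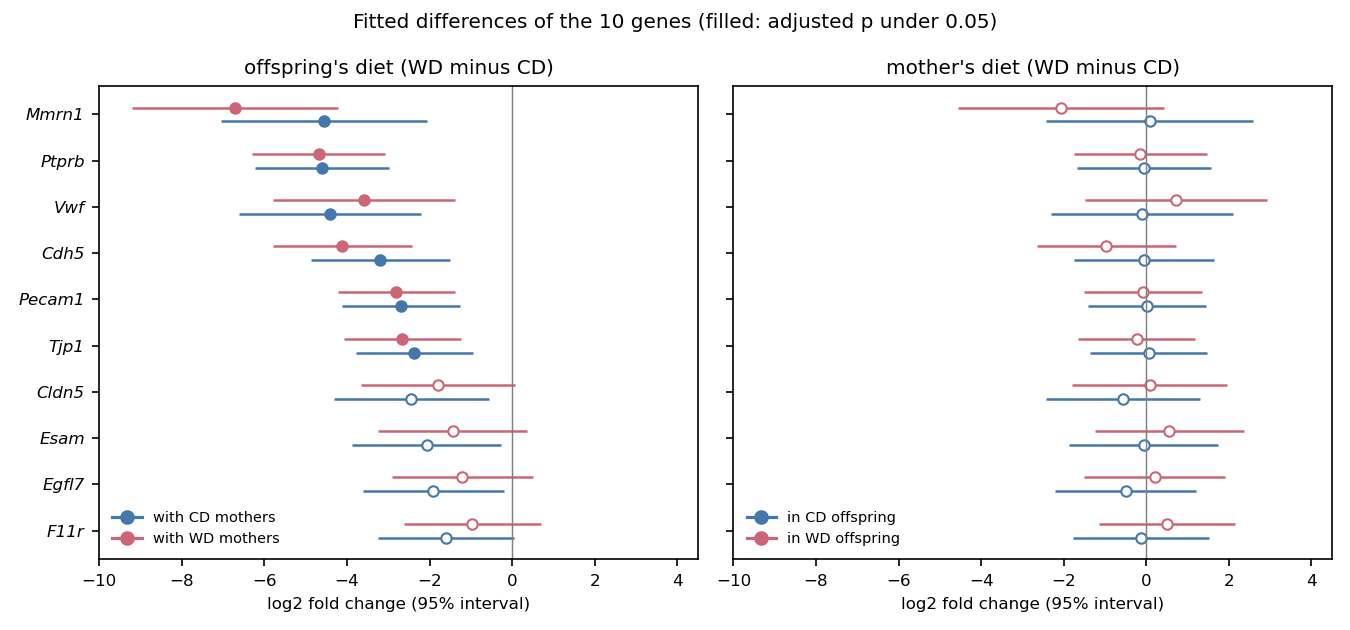
Fitted log2 fold changes of the 10 genes with 95% intervals, for the offspring's diet (left) and the mother's diet (right), each in 2 strata, with filled points where the limma adjusted p was under 0.05. The left panel holds values from -6.71 to -0.96, and the right panel has no filled point.

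The mother's diet was the other question of the design. In CD offspring 0 of the 10 genes and 0% of all genes passed (limma adjusted p = 1 for each of the 10), and the log2 differences ran from -0.56 for Cldn5 to 0.08 for Mmrn1. The interval of Pecam1 was -1.40 to 1.45 and that of Cldn5 -2.43 to 1.31, so this fit does not exclude differences of that size. Its error is shared by all 4 groups. The SD of log2 Cldn5 was 0.12 in CD_CD and 0.25 in WD_CD, against 2.45 in CD_WD and 0.70 in WD_WD. Fitting only the groups compared also gave 0 of the 10 genes. Cldn5 and Egfl7 did not overlap between CD_CD and WD_CD, while the other genes did. The share of all genes that do so was not counted. In WD offspring 0 of the 10 genes and 0% of all genes passed, with values from -2.07 for Mmrn1 (interval -4.57 to 0.43, adjusted p = 0.863) to 0.72 for Vwf (adjusted p = 0.955). The interaction of both diets also gave 0 of 10 genes and 0% of all genes (adjusted p = 0.997 for each of the 10). Unadjusted p-values under 0.05 numbered 276 genes in CD offspring, 628 in WD offspring and 342 for the interaction. EdgeR on the recovered reads called 0 genes in each, and DESeq2 called 9, 14 and 10, with 0 of the 10 among them.

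The direction of the mother's diet in WD offspring changed with the library left out and with the method. With all libraries, 5 of the 10 genes had values below 0. Without that library all 10 did, from -0.70 for F11r through -1.30 for Cldn5 and -2.003 for Cdh5 to -2.94 for Mmrn1, and 0 of the 10 passed (limma adjusted p from 0.278 to 0.679). With all libraries kept, edgeR on the recovered reads also gave values below 0 for Cldn5 (-0.78), Esam (-0.37), F11r (-0.34), Vwf (-0.41) and Egfl7 (-0.44), which were above 0 in limma. Pecam1, Ptprb and Tjp1 changed sign in 3 of the 12 fits that left out 1 library. In the authors' deposited table, the log2 fold changes of the 10 genes in WD offspring were likewise below 0, from -1.17 for Cdh5 (adjusted p = 0.635) to -0.28 for F11r (adjusted p = 0.95). No direction is read from these values.

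Levels of different genes were compared per kilobase of merged exons. That length is not the length of the transcript made, so the order of the genes depends in part on the annotation. In CD offspring the level per kilobase was 3688 ± 784 for Pecam1, 3520 ± 823 for Cldn5, 2154 ± 489 for Esam and 1733 ± 403 for Egfl7 (SD, n = 6). Vwf had 1057 ± 248, F11r 1016 ± 214, Ptprb 839 ± 153, Cdh5 526 ± 140, Mmrn1 260 ± 157 and Tjp1 57.6 ± 13.6. Each gene overlapped its neighbour in this order over the libraries, apart from Mmrn1 and Tjp1. In WD offspring the order of the means was Cldn5 (1170 ± 973), Esam (854 ± 560), Egfl7 (780 ± 515), Pecam1 (674 ± 488), F11r (550 ± 382), Vwf (101 ± 75.3), Cdh5 (59.9 ± 50.5), Ptprb (44.6 ± 33.03), Tjp1 (11.7 ± 7.03) and Mmrn1 (9.21 ± 8.76). There each neighbouring pair overlapped. Ptprb thus stood above Cdh5 in CD offspring and under it in WD offspring, and Pecam1 no longer led.

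The 10 genes did not fall by the same amount. A level relative to the others, the log2 level of a gene minus the mean log2 level of the other 9 in the same library, removes what the genes share in a library. From CD to WD offspring this relative level moved by -2.94 for Mmrn1, -1.83 for Ptprb, -1.12 for Vwf and -0.73 for Cdh5. It moved by 0.27 for Pecam1, 0.53 for Tjp1, 0.97 for Cldn5, 1.37 for Esam, 1.59 for Egfl7 and 1.90 for F11r. The libraries of the 2 diets did not overlap in this measure for Ptprb, Esam, Egfl7 and F11r. Ptprb lay from 1.26 to 1.81 in CD offspring and from -0.91 to 0.14 in WD offspring, and F11r was at most -0.40 in CD offspring and at least 0.49 in WD offspring. Against Pecam1 alone, the diets did not overlap for Ptprb (-1.89), Vwf (-1.25) and F11r (1.48). These are descriptions of a score over the 10 genes and carry no test. A fall of any gene raises the score of the other 9, so the large fall of Mmrn1 enters each of them. The share of all genes without overlap against Pecam1 was not counted.

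**Figure D3:**
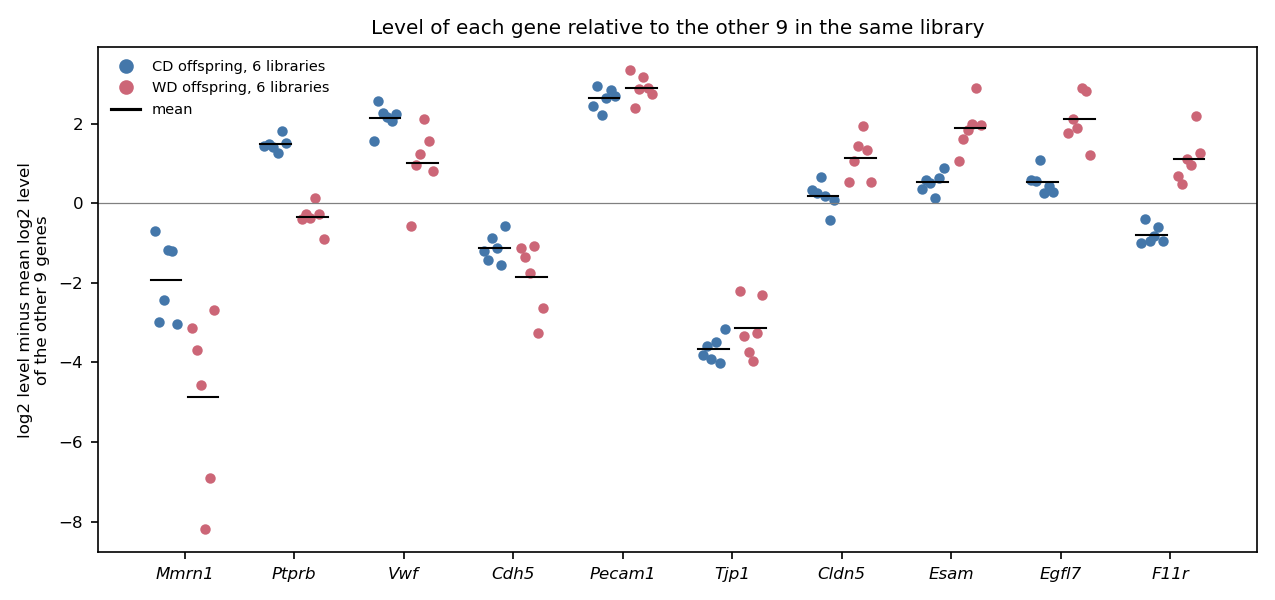
Log2 level of each gene minus the mean log2 level of the other 9 in the same library, for 6 CD (blue) and 6 WD (red) libraries, with bars for the means. Ptprb sits lower in all 6 WD libraries than in any CD library, while Esam, Egfl7 and F11r sit higher.

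Profiles over the 12 libraries were compared by the root mean square difference of centred log2 levels. The closest pairs were Esam with F11r (0.341) and Cldn5 with Egfl7 (0.385), both junction or matrix genes with a smaller fall. Pecam1 was nearest to the mean profile of the 10 (0.275) and Mmrn1 farthest (1.939). Outside the 10, the genes nearest to that mean were Ptrf (0.256), which encodes the caveolar coat protein cavin-1, the imprinted RNA Meg3 (0.257), the cytoskeletal linker Dst (0.286), the endothelial receptor Tie1 (0.307), Hyal2 (0.311), a hyaluronidase, and the tetraspanin Tspan7 (0.314).

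Partners of the same junctions and stores were followed in 6 lists, in the averaged comparison of the offspring's diet. Of all genes, 17.6% fell and 20.1% rose in that comparison. Among adherens junction partners, 12 of 18 measured genes fell and 2 rose, with a median log2 difference of -2.10, beside -0.019 over all genes. Heg1, a receptor at endothelial junctions, fell by 2.95 on the log2 scale (limma adjusted p = 9.39e-06) and Ctnnb1, beta-catenin, fell by 2.26. The 2 that rose were Rap1b (1.18), a small GTPase of many blood cells, and Ccm2 (0.95), a scaffold protein. Among tight junction and polarity partners, 10 of 10 fell, with a median of -3.03. Amotl1, an angiomotin family scaffold, fell by 3.06 and the junctional adhesion molecule Jam2 fell by 3.20.

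In the list of border recycling and gap junction genes, 5 of 9 fell (median -1.94), among which Endod1 fell by 2.42 and the connexin gene Gja1 fell by 2.23. Endothelial transcription factors fell in 9 of 14 (median -2.15), with values of -4.23 for Foxc1 and -1.31 for the ETS factor Elk3. Values of 3 further ETS factors, chosen after they were seen, were -2.83 for Erg, which fell (limma adjusted p = 0.0039), and -0.34 for Fli1 and 1.36 for Ets1, neither of which passed. Endothelial surface receptors fell in 11 of 16 (median -2.31), with values of -2.18 for the adrenomedullin receptor gene Calcrl and -2.19 for Cd93. Of the Weibel-Palade body and secreted genes, 7 of 14 fell and 1 rose (median -1.51). The endothelin-converting enzyme gene Ece1 fell by 2.53, while Cd63, a tetraspanin of these bodies and of lysosomes, rose by 2.43.

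**Figure D4:**
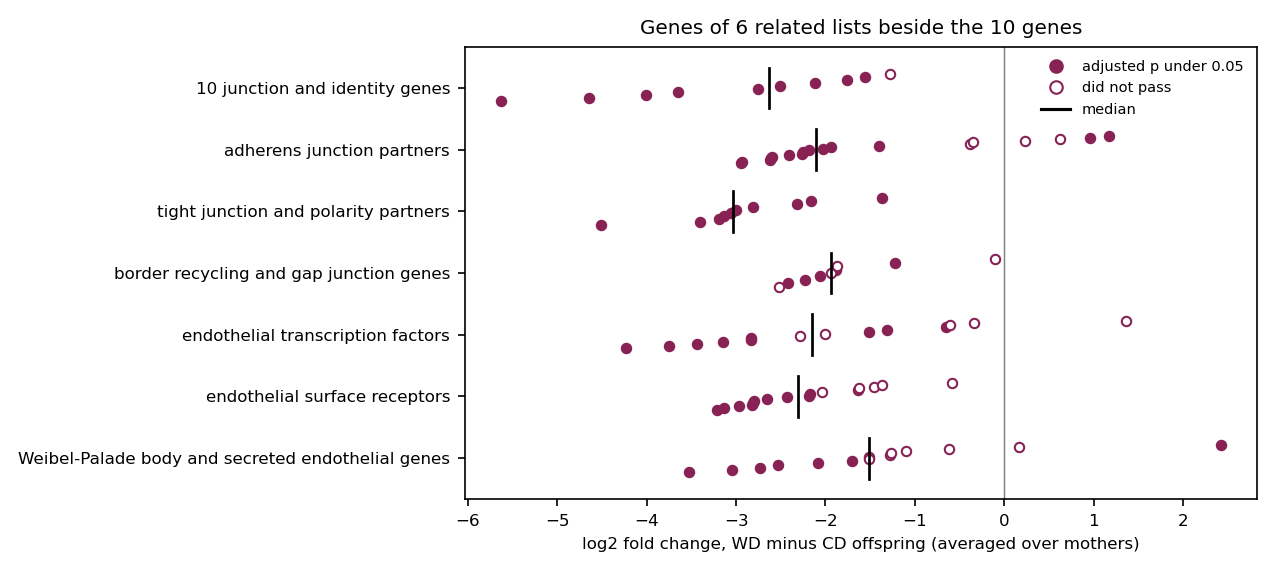
Log2 fold change between WD and CD offspring, averaged over mothers, of the 10 genes and of 6 lists of related genes, with filled points where the limma adjusted p was under 0.05 and a bar at each median. Medians lie between -3.03 and -1.51, and Rap1b, Ccm2 and Cd63 are the filled points above 0.

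Markers of other cell types moved with the offspring's diet in the same averaged comparison, in which 20.1% of all genes rose and 17.6% fell. Of 11 measured macrophage markers 6 rose and 0 fell. Cd68, a lysosomal protein, rose by 3.71 on the log2 scale (limma adjusted p = 0.00264), and the receptor gene Csf1r, at 0.62, did not pass. Their normalised counts summed to 10975 to 112599 on CD, the offspring's diet, and to 40402 to 1014159 on WD. Of 9 dendritic cell and MHC class II markers 6 rose, H2-Aa by 5.14 and H2-Ab1 by 5.17, and the sums were 10047 to 81879 and 353647 to 3694644. Lymphocyte markers rose in 8 of 10, with Cd3d at 4.11, while Cd3e at 2.73 did not pass. Their sums were 289 to 5366 on CD and 7173 to 407818 on WD. Neutrophil markers rose in 4 of 5, among them the calprotectin genes S100a8 by 10.63 and S100a9 by 9.10, with sums of 151 to 1147 and 13724 to 193023. The sums of MHC class II, lymphocyte and neutrophil markers did not overlap between the diets. CD_WD replicate 1 held the highest sums of MHC class II (3694644) and lymphocyte markers (407818), while WD_WD reached at most 908106 and 32816. It also held the lowest macrophage sum on WD (40402), and its neutrophil sum was 65352. The part of these markers in the falls or the relative levels of the 10 genes was not tested.

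Smooth muscle markers went the other way: 8 of 9 fell, against 17.6% of all genes. Myh11 was at -4.60 and Acta2 at -2.08, and the smooth muscle markers summed to 12214 to 84859 on CD and 1187 to 23781 on WD. Fibroblast markers fell in 3 of 9, and neither Lum (-0.66) nor Dcn (-0.68) passed. They summed to 27985 to 72699 on CD and 2538 to 78564 on WD. Of the mesothelial and epithelial markers only Krt18 (-1.02) and Krt8 (2.05) were measured, and neither passed. The one erythroid marker measured, Alas2, rose by 3.17.

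Since Vwf and Mmrn1 are also made by megakaryocytes, platelet markers were counted: of 7 measured, 4 rose and 0 fell, against 20.1% and 17.6% of all genes. Pf4 rose by 1.81 and Ppbp by 4.55, both platelet chemokines. The platelet markers summed to 659 to 1882 on CD and 1146 to 14824 on WD, with 1146 in CD_WD replicate 1. In that library 8 of the 10 genes, Vwf among them, were lowest of the WD libraries. Sums of smooth muscle, fibroblast and lymphatic endothelial markers on WD were lowest there too. Pecam1 is also found on platelets and leukocytes. The part of platelets in the levels of Vwf, Mmrn1, Pecam1 and the other genes was not tested. Lymphatic endothelial markers, 6 of 9 measured, fell in 5 and rose in 0. Lyve1, a hyaluronan receptor, was at -3.73 and Pdpn, which did not pass, at -0.45. The lymphatic markers summed to 4844 to 10632 on CD and 345 to 3259 on WD, and their part in the fall of Mmrn1 was not tested. None of the measured markers in these lists was at 0 in every library of a group.

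**Figure D5:**
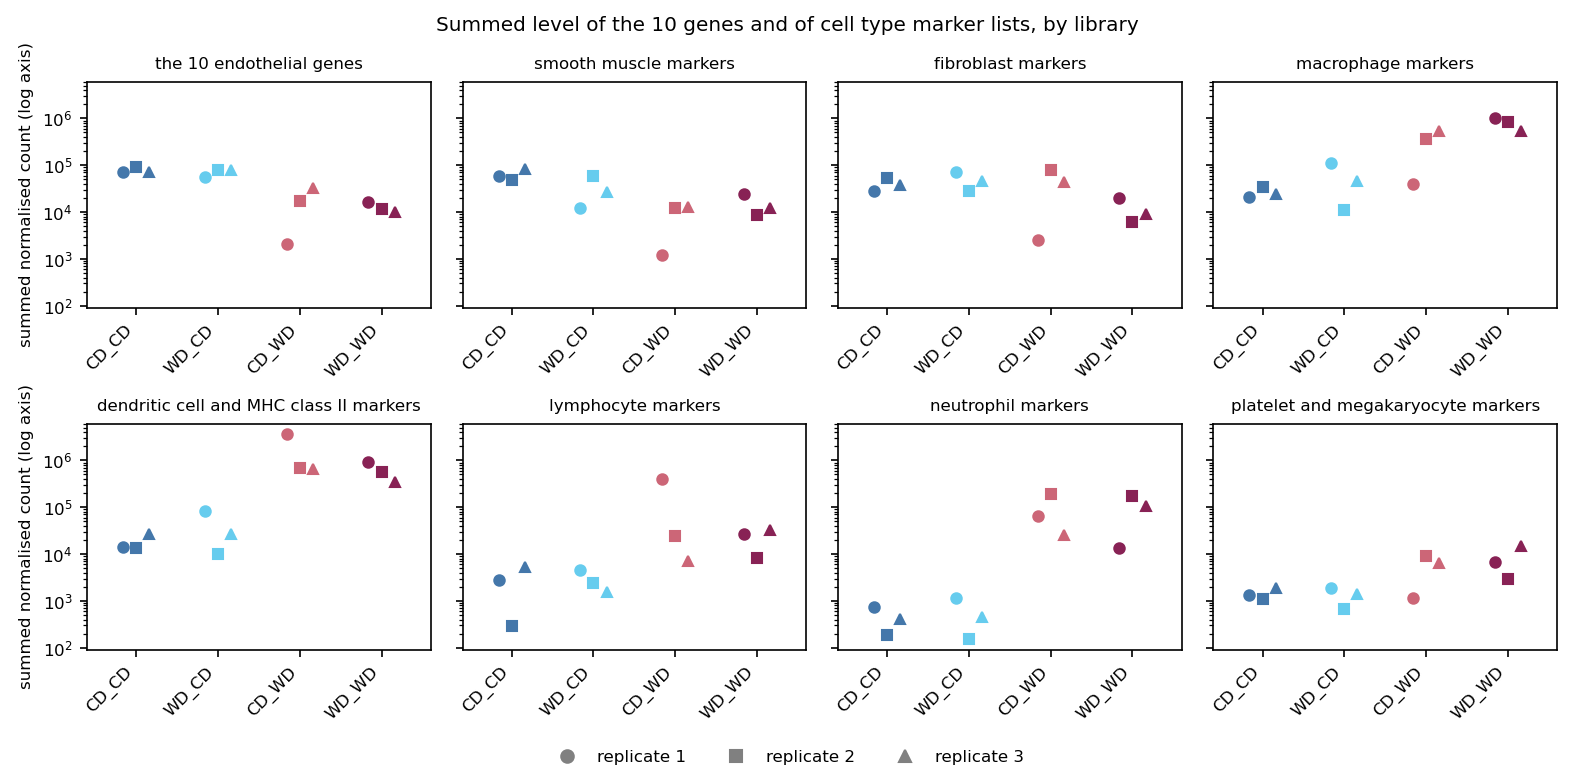
Summed normalised counts (log axis) of the 10 genes and of 7 marker lists in each of the 12 libraries, with circles, squares and triangles for replicates 1, 2 and 3. The 10 genes sum to 56992 to 91061 on CD and 2089 to 33426 on WD, while MHC class II, lymphocyte and neutrophil markers are higher in all 6 WD libraries.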

How the data were processed

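The submitters' processing notes name the aligner HISAT2 2.2.1, the counter featureCounts 2.0.1, DESeq2, the trimmer Trim Galore 0.6.10, FastQC 0.12.1 and SAMtools 1.13, with the GRCm38 (mm10) genome. Their settings, strand included, are not given in the labels. The authors deposited a normalised signal per gene and library, which is a read count divided by a size factor: 100% of values were whole multiples of 1 read within 0.01, where the lowest value of CD_CD replicate 3 was taken as 3 reads. The authors' deposited table also gives log2 fold changes and p-values for the mothers' diets.

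Values were tested as log2(value + 1) with limma 3.58.1 (mean-variance trend, R 4.3.3), in 1 model of 12 libraries and 4 groups, adjusted by Benjamini-Hochberg over 10655 genes. A filter on a mean of at least 1 removed no gene. The script was tested on simulated data. Alternatives were pseudocounts of 0.5 and 5, filters, TMM, quantile and equal-total scaling, edgeR 4.0.16 and DESeq2 1.42.0 on recovered reads, library weights, a replicate block and leaving out libraries. Gene positions are RefSeq's (GRCm38.p6) and exon lengths GENCODE M21's.

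The 10 genes and the lists were chosen with earlier results of these data known. Named from each list were the 2 called genes of smallest p in each direction, from each marker list the first 2 measured genes, and the 6 nearest profiles. One gene that this rule names is not reported here.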

Additional observations from a re-analysis of the deposited data

How the results depend on the processing

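Each of the 10 genes was refitted in 25 ways with CD mothers, 25 with WD mothers and 24 averaged over mothers. The fall in WD offspring kept its direction in 250 of 250, 250 of 250 and 240 of 240 values, 1 per gene and refit. These values come from the same 12 libraries and are not independent. The number past the threshold depended on the fit. With CD mothers, 6 genes passed in limma, 10 after quantile normalisation, 10 after scaling to equal totals (an alternative added after the data were seen) and 3 when only the groups compared were fitted. Of all 10655 genes, 1599, 1962, 4367 and 1208 passed in the same fits. Leaving out 1 library at a time gave 2 to 10 genes with CD mothers, 5 to 10 with WD mothers and 7 to 10 averaged over the mothers. Counts of all genes in those fits are not given here. With WD mothers 10 genes passed when only the groups compared were fitted, beside 2268 of all genes. With the replicate number as a block, 6, 6 and 8 genes passed, beside 1433, 2319 and 3812 of all genes. The number was not shown to pair the libraries: the 18 correlations between same-numbered libraries of different groups ran from -0.232 to 0.074.

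The sign of the mother's diet was not stable. No gene of the 10 passed in any refit. Of the values, 1 per gene and refit, the sign changed in 30 of 250 in CD offspring, 38 of 250 in WD offspring, 31 of 240 averaged over offspring and 34 of 240 for the interaction. The cause was not tested. With quantile normalisation, the turned values were in CD offspring Pecam1 -0.18, in WD offspring Cldn5 -0.09 and Egfl7 -0.02. With edgeR on the recovered reads, the turned values were in CD offspring Cdh5 0.022, Esam 0.006 and Mmrn1 -0.056, in WD offspring Cldn5 -0.78, Esam -0.37, F11r -0.34, Vwf -0.41 and Egfl7 -0.44, averaged over offspring Esam -0.18, F11r -0.24 and Vwf -0.27, in the interaction Cldn5 -0.24, Esam -0.38, F11r -0.20 and Vwf -0.28. With DESeq2 on the recovered reads, the turned values were in CD offspring Cdh5 0.01 and Mmrn1 -0.067, in WD offspring Cldn5 -0.72, Esam -0.32, F11r -0.28, Vwf -0.36 and Egfl7 -0.39, averaged over offspring Esam -0.16, F11r -0.21 and Vwf -0.25, in the interaction Cldn5 -0.18, Esam -0.32, F11r -0.14 and Vwf -0.22. With library weights, the turned values were in CD offspring Ptprb 0.006 and Tjp1 -0.02, in WD offspring Cldn5 -0.68, Esam -0.39, F11r -0.23, Vwf -0.35 and Egfl7 -0.61, averaged over offspring Esam -0.23, F11r -0.16 and Vwf -0.27, in the interaction Cldn5 -0.044, Esam -0.32, F11r -0.14, Vwf -0.17 and Egfl7 -0.10. With scaling to equal totals, the turned values were in CD offspring Pecam1 -0.002. With leaving out CD_WD replicate 1 and WD_CD replicate 3 together, the turned values were in CD offspring Pecam1 -0.031 and Tjp1 -0.20, in WD offspring Cldn5 -1.30, Esam -0.80, F11r -0.70, Vwf -0.95 and Egfl7 -1.03, averaged over offspring Esam -0.55, F11r -0.42 and Vwf -0.58, in the interaction Cldn5 -0.60, Esam -0.51, F11r -0.56, Vwf -0.73 and Egfl7 -0.47. Leaving out 1 library at a time, the values in CD offspring ran from -0.16 to 0.24 for Pecam1, from -0.36 to 0.11 for Cdh5, from -0.23 to 0.19 for Ptprb, from -0.29 to 0.25 for Esam, from -0.20 to 0.22 for Tjp1, from -0.27 to 0.061 for F11r, from -0.35 to 0.12 for Vwf and from -0.32 to 0.70 for Mmrn1. Leaving out 1 library at a time, the values in WD offspring ran from -1.03 to 0.68 for Pecam1, from -1.33 to 0.61 for Ptprb, from -1.30 to 1.03 for Cldn5, from -0.80 to 1.47 for Esam, from -0.998 to 0.24 for Tjp1, from -0.70 to 1.41 for F11r, from -0.95 to 1.79 for Vwf and from -1.03 to 0.95 for Egfl7. Leaving out 1 library at a time, the values averaged over offspring ran from -0.50 to 0.35 for Pecam1, from -0.69 to 0.28 for Ptprb, from -0.93 to 0.24 for Cldn5, from -0.43 to 0.70 for Esam, from -0.47 to 0.15 for Tjp1, from -0.42 to 0.64 for F11r, from -0.53 to 0.84 for Vwf and from -0.77 to 0.23 for Egfl7. Leaving out 1 library at a time, the values in the interaction ran from -1.05 to 0.65 for Pecam1, from -1.27 to 0.66 for Ptprb, from -0.74 to 1.59 for Cldn5, from -0.74 to 1.54 for Esam, from -1.06 to 0.18 for Tjp1, from -0.56 to 1.55 for F11r, from -0.85 to 1.90 for Vwf and from -0.53 to 1.45 for Egfl7.

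The SOX motif was in 0 of the 7 promoters when 100 bases were searched. The relative levels moved by less than 1 SD in 150 of 150 values, 1 per gene and refit, and no refit left out a gene. The exact permutation tests kept their side of 0.05 in 149 of 150 such values. Depth limits Mmrn1 most, with 1 and 3 reads in 2 WD_WD libraries. Each group holds 3 libraries, so 1 library can decide whether a gene passes.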
